A study of Rattus norvegicus with 12 samples.

Results

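The MHC class II antigen presentation genes taken here are 7 rat genes: RT1-Ba, RT1-Bb, RT1-Da and RT1-Db1, which encode class II chains, and Cd74, Ciita and Ctss, which serve the same pathway. They were listed by symbol, and each probe set that the platform annotation assigns to a single symbol was kept, which gave 13 probe sets for all 7 of 14217 named genes. The livers came from male Wistar rats that were 5 weeks old and had first been kept for 4 days on the AIN93G diet. One group then received AIN93G with 20% maple syrup for 11 days and the control group AIN93G with 20% of a sugar mix syrup made to a like sugar composition. All animals were fasted for 16 hours before the livers were taken, so basal diet, syrup feeding and fasting are shared by both groups. Each diet has 6 arrays from separate livers, out of 7 rats fed maple syrup and 8 fed the sugar mix. There is no group without syrup.

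Class II molecules are pairs of an alpha and a beta chain that display peptides from engulfed proteins to CD4 T cells. The rat RT1-D locus corresponds to human HLA-DR and RT1-B to HLA-DQ, and class II chain genes are among the most variable genes between individuals of a mammal. The invariant chain Cd74 guides new class II pairs to the endosome, the protease Ctss cuts it down there, and the protein made by RT1-DMa and RT1-DMb exchanges its last fragment for peptide. Ciita is the coactivator that switches the class II genes on, through factors bound to the X and Y boxes of their promoters. In liver these genes are used mainly by dendritic cells, Kupffer cells and B cells. In a bulk sample such as these livers, fewer cells of a type and less RNA per cell cannot be told apart. Wistar is an outbred stock.

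The RT1 chain genes lie on chromosome 20 of the RefSeq assembly GRCr8 in the order RT1-Da, RT1-Db1, RT1-Ba and RT1-Bb. Their promoters are shown because the chain genes include the members whose scores rose and fell together over the livers. RefSeq promoter entries (250 bases before the start of the gene were searched, on both strands) were found for 6 of the 7 members, all but Ciita. The letters searched were TGATTGG, the core of the Y box, and GNNACNGATG, a form of the X box core. Both motifs were written after the promoters had been read. Each line gives 80 bases, 5′ to 3′ on the strand of the gene, with the X core and the Y core in capitals, and the motifs do not overlap.
RT1-Da, chr20:4515303-4515382, plus strand: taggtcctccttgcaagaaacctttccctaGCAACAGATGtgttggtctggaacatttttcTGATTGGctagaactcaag
RT1-Db1, chr20:4560226-4560305, minus strand: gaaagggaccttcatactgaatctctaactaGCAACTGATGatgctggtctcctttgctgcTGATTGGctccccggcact
RT1-Bb, chr20:4604163-4604242, minus strand: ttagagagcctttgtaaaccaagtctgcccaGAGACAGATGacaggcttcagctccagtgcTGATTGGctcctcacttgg
RT1-Ba, chr20:4576951-4577030, plus strand: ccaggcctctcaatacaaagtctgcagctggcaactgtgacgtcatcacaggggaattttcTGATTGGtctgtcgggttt
RT1-DMa, chr20:4712383-4712462, minus strand: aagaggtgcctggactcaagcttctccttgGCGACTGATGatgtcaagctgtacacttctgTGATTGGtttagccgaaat

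The Y core was found in all 4 RT1 members, and in 6.42% of 33469 RefSeq promoters of the same length. It lay 51 bases before the start of RT1-Da, 82 before RT1-Db1, 63 before RT1-Bb and 45 before RT1-Ba. The X core was found in RT1-Da, RT1-Db1 and RT1-Bb, and in 2.26% of the promoters. RT1-Ba did not hold these letters. Other forms of the X box were not searched, so its absence from RT1-Ba is not shown. Both together occurred in 0.209%. The bases between the X core and the Y core numbered 21 in RT1-Da, 20 in RT1-Db1 and 20 in RT1-Bb. RT1-DMa, which is no member, held both, 21 bases apart. Neither set of letters was found in the windows of Cd74 and Ctss. Because the letters were written after the promoters had been read, these matches and shares describe the sequence and carry no test. Binding was not measured.

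The values are the authors' processed score for each probe set, on a scale that resembles log2 intensity but whose differences between animals are far smaller than log2 intensities give. No fold change can therefore be read from them. Levels of different probe sets are not set against each other, except to mark a low score or the highest score of a gene. Array medians lay between 7.36619 and 7.36632. Over the 12 livers the median probe set spanned 2.38e-05. The members' median range was 0.00198, and 12 of the 13 member probe sets had a range above that of the median probe set. The number of arrays limits the precision. Each animal is therefore given below by a standardised score, its distance from the mean of the 12 livers in standard deviations (SD) of that probe set. The hepatocyte genes Alb, Apoa1 and Ttr had mean scores of 15.2, 14.4 and 14.4, which alone do not test the tissue label.

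Cd74 had a mean score of 10.3 over the 12 livers, with a range of 0.00272. With sugar mix the standardised score of Cd74 ran from -1.20 over a median of 0.41 to 1.75. With maple syrup it ran from -1.89 over -0.40 to 0.92. Sugar mix animal 6 was highest and maple syrup animal 4 lowest, and the diets overlapped over most of the range. RT1-Da, the alpha chain of the RT1-D molecule, had a mean score of 9.99. RT1-Da ran from -1.04 over 0.36 to 1.56 with sugar mix and from -1.84 over -0.38 to 0.97 with maple syrup. The highest and the lowest animal of RT1-Da were those of Cd74. RT1-Db1, the beta chain, was measured by 2 probe sets, which are also annotated to 1 common source sequence but gave different orders of the animals. 1370383_s_at of RT1-Db1 ran from -0.86 over 0.47 to 1.45 with sugar mix and from -1.36 over -0.33 to 0.64 with maple syrup, with the same animals at the ends. 1370382_at of RT1-Db1 ran from -1.11 over -0.49 to 2.02 and from -1.06 over -0.17 to 1.05, with sugar mix animal 2 highest.

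RT1-Ba, the alpha chain of the RT1-B molecule, had 4 probe sets, and these did not tell the same order of animals. The one with the highest mean score, 1370822_at of RT1-Ba at 9.06, ran from -1.23 over -0.08 to 1.84 with sugar mix and from -1.22 over -0.21 to 0.86 with maple syrup. Sugar mix animal 2 was highest there, and it was the lowest animal of RT1-Ba 1377334_at, at -1.82. The other 2 probe sets, 1392334_at and 1381593_x_at, are annotated to 1 common source sequence of RT1-Ba and had narrow ranges of 2.88e-05 and 4.6e-05. Maple syrup animal 5 was lowest in both, at -2.05 and -2.60. RT1-Bb, the beta chain, is described with its 2 probe sets below.

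Ciita had 2 probe sets with narrow ranges. 1369214_a_at of Ciita spanned 9.89e-06, which is 0.415 times the range of the median probe set, and is the single member probe set below it. It ran from -1.31 over 0.69 to 1.68 with sugar mix and from -1.24 over -0.54 to 0.36 with maple syrup. 1379381_at of Ciita spanned 4.06e-05 and ran from -0.39 over 0.17 to 2.16 and from -1.99 over -0.45 to 0.74. Its highest and lowest animals were again sugar mix animal 6 and maple syrup animal 4. Ctss had a mean score of 10.7 and ran from -0.44 over 0.51 to 1.28 with sugar mix and from -1.81 over -0.44 to 1.07 with maple syrup. Sugar mix animal 2 was highest and maple syrup animal 3 lowest for Ctss, so its ends were other animals than those of Cd74.

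**Figure D1:**
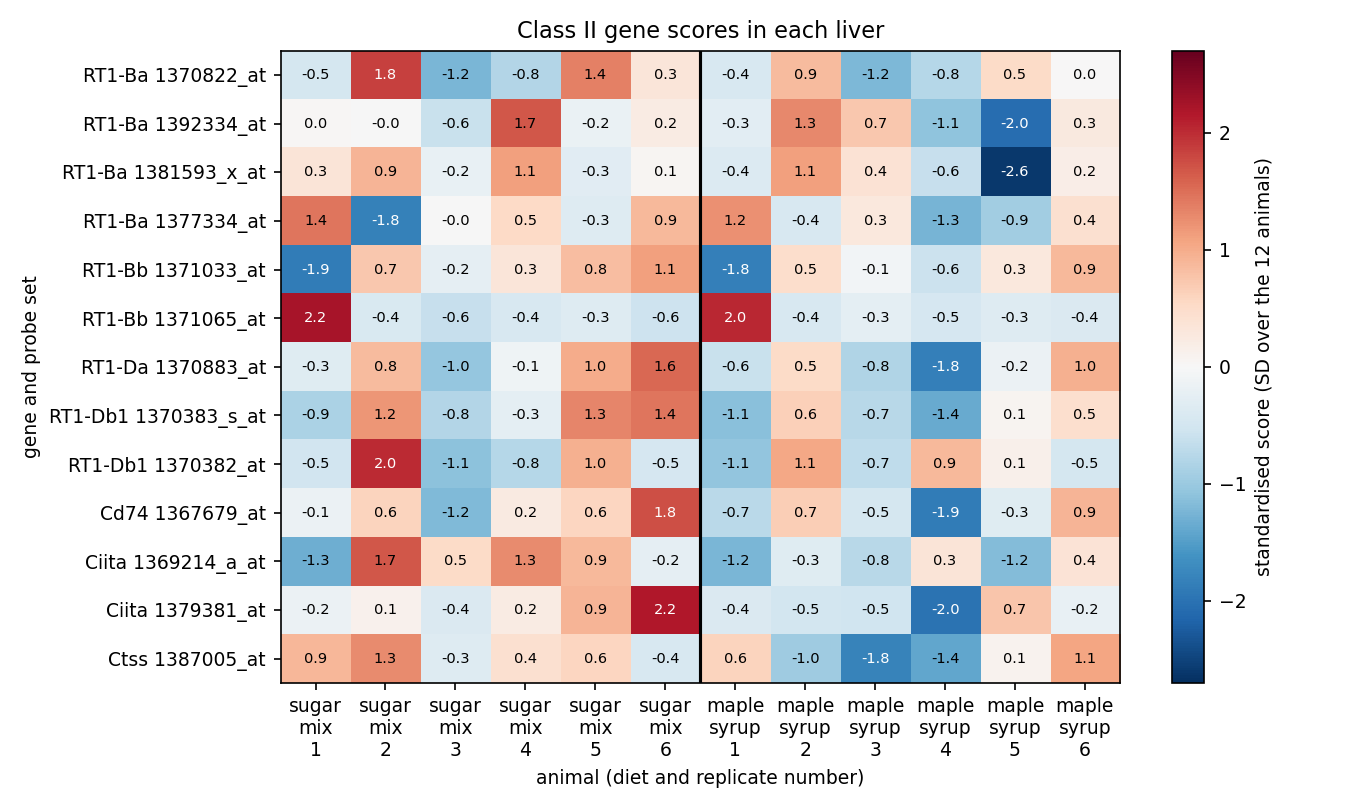
Standardised score (SD over the 12 animals) of the 13 member probe sets, one row each, in the 6 sugar mix and 6 maple syrup livers, one column each. Sugar mix animal 6 is high and maple syrup animal 4 low in the rows of Cd74, RT1-Da, RT1-Db1 1370383_s_at and Ciita 1379381_at, and the columns of the animals numbered 1 stand out in the RT1-Bb rows.

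RT1-Bb set 2 livers apart. Its probe set 1371065_at had a mean score of 6.53, under the array medians near 7.37, and fell among the lowest 30% of probe sets. With 1371065_at of RT1-Bb, sugar mix animal 1 stood at 2.23 and maple syrup animal 1 at 2.03. The other 10 livers lay between -0.62 and -0.27. The gap between the pair and the rest was 0.81 of the whole range of this probe set. Of all 31042 probe sets 12, or 0.0387%, set a pair of animals apart by more than 0.6 of the range, and RT1-Bb 1371065_at had the second widest gap. With 1371033_at of RT1-Bb, at a mean score of 8.73, the same 2 livers were the lowest. They stood at -1.89 and -1.84, and the other 10 ran from -0.59 to 1.11. The gap there was 0.41 of the range.

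Each diet holds 1 of the 2 livers, so the pair does not follow the diets. Both carry replicate number 1, and the labels name no batch that would join them. The probe sets of RT1-Bb thus placed the pair at opposite ends. Among the other 10 livers the correlation of the 2 RT1-Bb probe sets was r = 0.05. In RT1-Ba 1377334_at the pair was highest, at 1.44 and 1.24, and in Ciita 1369214_a_at lowest, at -1.31 and -1.24, though in both cases close to other animals. The pair held the 2 highest or the 2 lowest places in these 4 of the 13 member probe sets and in 3.79% of all probe sets. In Cd74 the same livers stood at -0.15 and -0.73, and in RT1-Da at -0.32 and -0.60, within the range of the others. For RT1-Bb 1371033_at the other same-numbered livers, sugar mix first, stood at 0.72 and 0.48 (number 2) and at -0.25 and -0.07 (number 3). They stood at 0.32 and -0.59 (number 4), 0.83 and 0.28 (number 5) and 1.11 and 0.88 (number 6). Why the pair stood apart was not tested, nor was any link by replicate number.

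**Figure D2:**
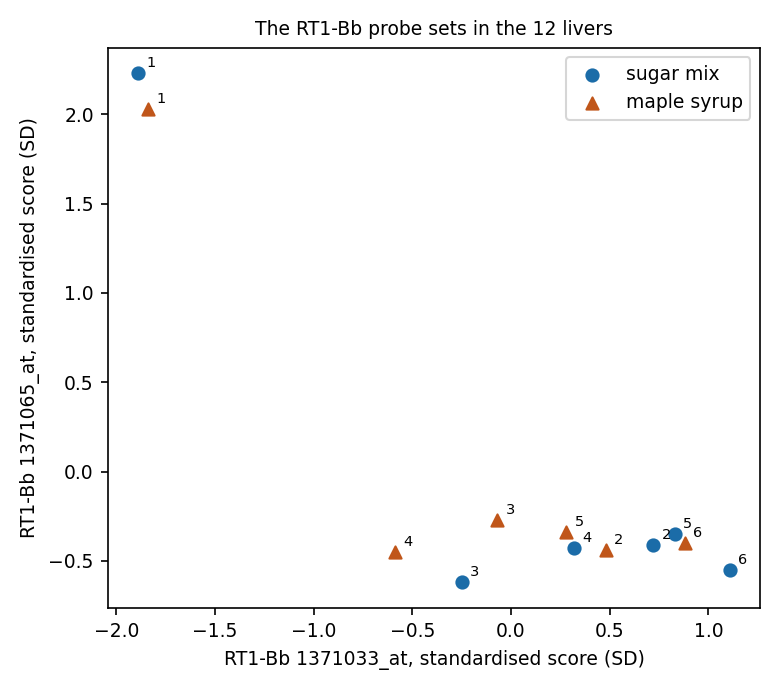
Standardised scores (SD) of the RT1-Bb probe sets 1371033_at (x axis) and 1371065_at (y axis) in the 12 livers, with circles for sugar mix, triangles for maple syrup and the replicate number beside each point. The animals numbered 1 of both diets lie together at the upper left, at about -1.9 on the x axis and above 2 on the y axis, while the other 10 lie in a band near -0.4 on the y axis.

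Probe sets of 1 gene gave different orders of the animals in RT1-Bb, RT1-Ba and RT1-Db1. Over all genes, 433 pairs of probe sets of 1 gene, in 283 genes, had both members among the widest 10% by spread. Their median correlation over the 12 livers was r = 0.88, and 14 pairs were below 0. The RT1-Bb probe sets had the lowest value, r = -0.86, which rests on the animals numbered 1. RT1-Ba 1370822_at and 1377334_at had r = -0.49, the 8th lowest of these pairs, and the RT1-Db1 probe sets had r = 0.50, the 35th lowest. Outside this comparison, the narrow RT1-Ba probe sets 1392334_at and 1381593_x_at had r = 0.90, and those of Ciita r = 0.02. These correlations describe pairs that share arrays and carry no test. RT1-Ba and RT1-Db1 are therefore given by probe set throughout, not by a mean over them.

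Covariation with Cd74 was measured over the 12 livers as Pearson's r, with a permutation p from 100000 resamples and Benjamini-Hochberg adjustment over all 31041 other probe sets. There were 12 relations to members within that family. RT1-Da followed Cd74 most closely of all 31041 probe sets, with r = 0.97 and Spearman's rho = 0.94. The permutation p was 1e-05, the smallest these resamples can give, with an adjusted p of 0.31, and that of rho was 3e-05, with an adjusted p of 0.931. No probe set, 0%, had a positive r at an adjusted p of 0.05 with this number of resamples, at which a probe set alone at the smallest p cannot pass. RT1-Da, the 1 probe set at that smallest p, was then rerun with 20000000 resamples, a step chosen after the data had been seen, while all others kept their p. Its permutation p was 5e-07 and its adjusted p 0.0155, so that 1 of 31041 probe sets, 0.00322%, passed.

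The agreement of RT1-Da with Cd74 held in the subsets that follow. Without the 2 animals farthest from the median of Cd74, maple syrup animal 4 and sugar mix animal 6, r was 0.94. Within sugar mix r was 0.95 and within maple syrup 0.98, with 6 livers each, and with each diet centred on its mean it was 0.97. RT1-Db1 1370383_s_at ranked 5th of 31041, with r = 0.87 (permutation p = 0.00021) and rho = 0.86 (permutation p = 0.0006). Its adjusted p was 1 for both measures. The r of RT1-Db1 1370383_s_at was 0.81 without those 2 animals, 0.83 within sugar mix and 0.91 within maple syrup. RT1-Da and RT1-Db1 1370383_s_at had r = 0.93 with each other.

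RT1-Bb 1371033_at split the livers into 2 and 10, so it is given with and without the pair. Over all 12 livers its r with Cd74 was 0.64 (permutation p = 0.0257, adjusted p = 1), the 292nd highest, and rho was 0.85 (permutation p = 0.00094), and these values mix the pair with the rest. Within the 10 livers r was 0.97 (permutation p = 1e-05, adjusted p = 0.31), the second highest of 31041. Over the same 10 livers RT1-Da had r = 0.97 and RT1-Db1 1370383_s_at r = 0.90. In contrast, RT1-Bb 1371065_at had r = -0.20 over the 12 livers and 0.02 over the 10. Leaving out the animals numbered 1 was chosen after seeing the data, for their values in these same probe sets.

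**Figure D3:**
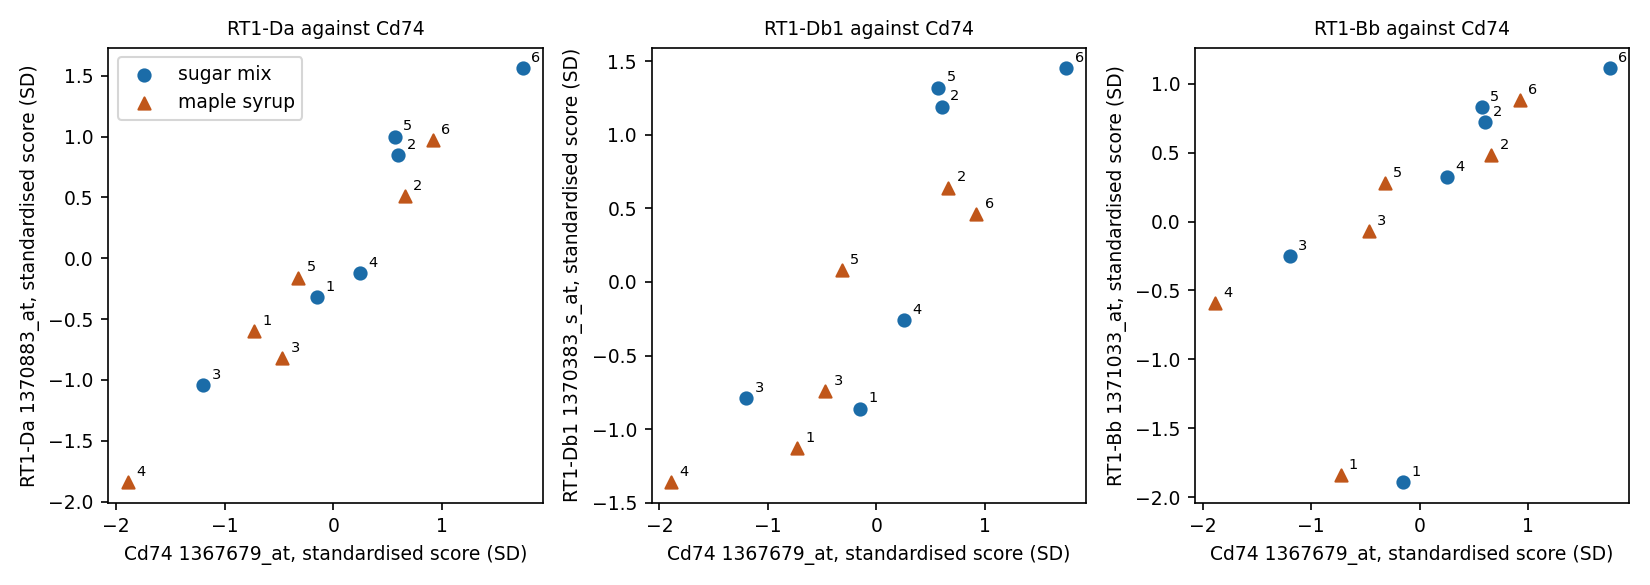
Standardised scores (SD) of RT1-Da, RT1-Db1 1370383_s_at and RT1-Bb 1371033_at (y axes, left to right) against Cd74 (x axes) in the 12 livers, with circles for sugar mix, triangles for maple syrup and replicate numbers. RT1-Da and RT1-Db1 rise with Cd74 in both diets, with r = 0.97 and r = 0.87, and in the RT1-Bb panel the animals numbered 1 lie below the line of the other 10.

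The remaining members followed Cd74 less closely, and each had an adjusted p of 1. RT1-Ba 1370822_at had r = 0.60 (permutation p = 0.0405) and rho = 0.63 (permutation p = 0.0319), with r = 0.68 without the 2 farthest animals and 0.58 and 0.61 within sugar mix and maple syrup. Ciita 1379381_at had r = 0.77 (permutation p = 0.00435) and rho = 0.55 (permutation p = 0.0668). Without the 2 farthest animals its r was 0.29, so this relation rests on sugar mix animal 6 and maple syrup animal 4. Ctss had r = 0.37 (permutation p = 0.233) and rho = 0.32 (permutation p = 0.307), with r = -0.01 within sugar mix and 0.45 within maple syrup.

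Of the other probe sets, RT1-Ba 1392334_at had r = 0.47 and 1381593_x_at r = 0.36. Ciita 1369214_a_at (r = 0.19), RT1-Ba 1377334_at (0.18) and RT1-Db1 1370382_at (0.17) lay just under the 75th percentile of all probe sets, 0.22, with permutation p from 0.553 to 0.604. Without the 2 farthest animals these became 0.46, -0.33 and 0.65. Over all 31041 probe sets the median r with Cd74 was 0.02 and the 95th percentile 0.48. Of the 12 member probe sets other than Cd74, 11 had r above 0, where 53.2% of all probe sets did, with RT1-Bb 1371065_at below 0. Their median was 0.42. A positive r at an unadjusted p of 0.05 was found for 5 of the 12, where 1.96% of all probe sets had one, and for 4 of 10 when both RT1-Bb probe sets were left out.

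The order of these correlations depended on keeping the deposited values. Median centring of the arrays left r of RT1-Da at 0.97 and gave 0.89 for RT1-Db1 1370383_s_at, but took Ciita 1379381_at from 0.77 to 0.34 and RT1-Ba 1392334_at from 0.47 to 0.25. Quantile normalization left Cd74 with 2 distinct values over the 12 animals, and RT1-Da then had r = -0.09 with it and RT1-Db1 1370383_s_at -0.47.

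Genes outside the family were compared with the mean standardised score of the members, each by the probe set with its highest mean. This mean ran from -0.62 to 1.17 with sugar mix, highest in sugar mix animal 2, and from -1.07 to 0.67 with maple syrup, lowest in maple syrup animal 4. Of 14210 genes the 10 most alike over the 12 livers had r from 0.79 to 0.89. They were picked for this likeness, so the values are a description. Adgrg6, an adhesion G protein-coupled receptor, had r = 0.89, and Cxcl9, a chemokine induced by interferon gamma, had r = 0.88. Cd86, a co-stimulatory ligand on antigen-presenting cells, had r = 0.84, and RT1-DMa had r = 0.82. Pld4, an exonuclease of the endolysosome, had r = 0.81, and Glmp, a protein of the lysosomal membrane, had r = 0.79. The others were Arl16 (r = 0.85), a small GTPase, Prp2l1 (r = 0.82), C19h1orf198 (r = 0.81) and the transcription factor Tfap2b (r = 0.81). Without the animals numbered 1 the 10 values ran from 0.75 to 0.87.

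The genes of peptide loading and of class II control were taken from lists, of which 15 were used in all, 4 of pathways and 11 of markers, with 151 of 188 genes measured. In the accessory and peptide loading list, 11 of 12 measured genes had r above 0 with Cd74, with a median of 0.33. RT1-DMa had r = 0.66 (permutation p = 0.0201) and rho = 0.66 (permutation p = 0.022), and r = 0.57 without the 2 farthest animals. RT1-DMb, its partner chain, had r = 0.34 (permutation p = 0.275) and rho = 0.51 (permutation p = 0.0937). The highest r of the list belonged to Ifi30, a thiol reductase that unfolds antigens, at 0.70 with rho = 0.76, named after its value was seen. In the list of X and Y box factors and of interferon gamma signalling, 8 of 15 genes had r above 0, with a median of 0.06, close to that of all probe sets. Rfx5, which binds the X box, had r = -0.08 (permutation p = 0.801) and rho = -0.31, but r = -0.81 without the 2 farthest animals. The value near 0 thus rests on those animals. Rfxap, a partner of Rfx5 named after its value was seen, had r = -0.30 and likewise -0.82 without them. Irf1, a factor induced by interferon, had r = 0.10 (permutation p = 0.749) and rho = -0.08, and r = -0.29 without them. RT1-DOa and RT1-DOb were not analysed here.

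Co-stimulatory genes had a median r of 0.28, with 4 of 4 above 0. Cd86 had r = 0.65 (permutation p = 0.0241) and rho = 0.76 (permutation p = 0.00599), and r = 0.92 without the 2 farthest animals. Cd80, the related ligand, had r = 0.43 and rho = 0.45, and Cd40, a receptor of antigen-presenting cells, r = 0.13 and rho = 0.05. Class I presentation genes, which display peptides from inside the cell, had a median r of 0.13 with 13 of 17 above 0. Of these, the class I heavy chain genes RT1-A3, RT1-CE5 and RT1-CE10 had r of -0.40, -0.25 and 0.02. No gene of any of the 15 lists passed, each with an adjusted p of 1 over all probe sets.

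The median r with Cd74 was 0.15 for single dendritic markers, 0.23 for Kupffer and macrophage markers and -0.12 for B cell markers. Over all probe sets the median was 0.02 and the 75th percentile 0.22, and 53.2% had r above 0. The mean scores of the dendritic and Kupffer lists had a higher r with Cd74 than their median markers, but so did those of T and NK cells and of cholangiocytes. The mean over a list had r with Cd74 of 0.54 for dendritic cells, 0.48 for Kupffer cells and macrophages, 0.59 for the accessory list and 0.53 for co-stimulation. It was 0.49 for T and NK cells and 0.49 for cholangiocytes, 0.18 for general leukocyte markers, -0.19 for B cells and 0.02 for hepatocytes. For sinusoidal endothelial cells it was 0.28, for X and Y box factors 0.14 and for class I presentation 0.13. Stellate cells, neutrophils and immediate early genes had 0.08, 0.03 and -0.01. These are a description over 12 livers, and means over lists of different length are not compared by a test. Dendritic cell markers had r above 0 in 8 of 9 measured genes, with a median of 0.15 and a range from -0.03 to 0.53. The growth factor receptor Flt3 had r = 0.01 and rho = -0.16, the integrin Itgax r = 0.15 and rho = 0.11, and the transcription factor Batf3 r = 0.37 and rho = 0.05. The mean standardised score of the dendritic list ran from -0.16 to 0.80 with sugar mix and from -0.49 to 0.13 with maple syrup. Kupffer cell and macrophage markers had r above 0 in 13 of 15, with a median of 0.23 and a range from -0.17 to 0.72. The lectin Clec4f, a marker of resident Kupffer cells, had r = 0.05 and rho = 0.07, the scavenger receptor Cd163 r = 0.14 and rho = 0.06, and Adgre1, which encodes F4/80, r = 0.11 and rho = 0.06. The mean score of the Kupffer list ran from -0.31 to 0.47 and from -1.17 to 0.51. The highest value was that of Csf1r, the receptor for the macrophage growth factor, named after it was seen. Csf1r had r = 0.72 (permutation p = 0.00793) and rho = 0.72, but r = 0.43 without the 2 farthest animals.

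B cell markers lay on the other side, with 3 of 9 above 0, a median r of -0.12 and a range from -0.48 to 0.32. Ms4a1, which encodes CD20, had r = -0.48 (permutation p = 0.114) and rho = -0.57, and r = -0.59 without the 2 farthest animals. Cd79b, part of the B cell receptor, had r = -0.31 and rho = -0.29, and the kinase Blk r = -0.03 and rho = -0.04. The mean score of the B cell list ran from -1.34 to 0.34 with sugar mix and from -0.33 to 0.46 with maple syrup. General leukocyte markers had a median r of 0.17 (8 of 11 above 0), with Ptprc at -0.01, Tyrobp at 0.22 and Fcer1g at 0.38. Their mean score ran from -0.89 to 0.93 and from -1.09 to 1.26. T and NK cell markers had a median of 0.21 (10 of 13 above 0), with Cd3d at 0.47, Cd3e at 0.46 and Cd3g at -0.33. The highest r of all listed genes was that of Prf1 in this list, which encodes the perforin of cytotoxic cells and was named after it was seen. Prf1 had r = 0.74 (permutation p = 0.00572) and rho = 0.66 (permutation p = 0.0218), and r = 0.41 without the 2 farthest animals.

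Cells that do not belong to the immune system gave medians of 0.07 for sinusoidal endothelial cells (6 of 8 above 0), 0.29 for cholangiocytes (5 of 6), 0.08 for stellate cells (5 of 9) and -0.01 for hepatocytes (4 of 9). The cholangiocyte keratins Krt19 and Krt7 had r = -0.08 and 0.09, and Epcam 0.33. Stab2, Stab1 and Lyve1 of the sinusoidal endothelium had r of -0.12, 0.14 and 0.03, and Des, Rgs5 and Lrat of stellate cells -0.01, -0.29 and -0.09. Neutrophil markers had a median of 0.00 (3 of 6), with S100a8, S100a9 and Csf3r at 0.02, -0.12 and -0.01. Immediate early genes, which respond to handling of tissue, had a median of -0.03 (4 of 8), with Fos, Fosb and Egr1 at 0.34, 0.03 and 0.05. The table carries no detection call, so no marker can be said to be at 0. The part that these cells had in the covariation of the class II genes was not tested.

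**Figure D4:**
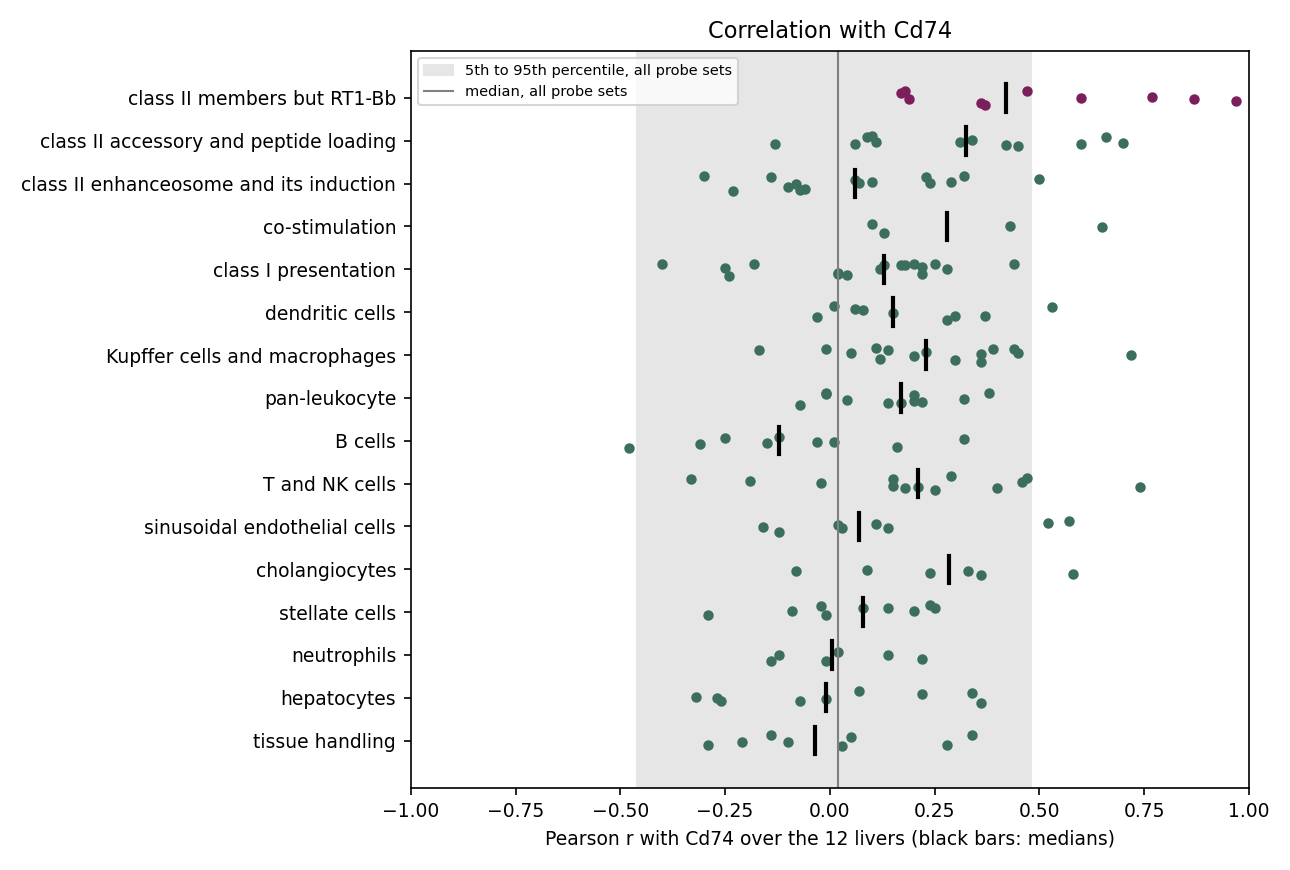
Pearson r with Cd74 over the 12 livers (x axis) for the member probe sets other than RT1-Bb (top row) and for the measured genes of the 15 lists (1 point each, black bars for medians), with the 5th to 95th percentile of all probe sets shaded and their median of 0.02 as a line. Of the members, 4 lie beyond the 95th percentile of 0.48, and the medians of the marker lists lie between -0.12 and 0.29.

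The comparison of diets asked whether class II genes differed between maple syrup and a sugar mix of like composition. No member passed. In limma with Benjamini-Hochberg adjustment each of the 13 member probe sets had an adjusted p of 1, and 0 of 31042 probe sets, 0%, were called. At an unadjusted p of 0.05, 0 of the 13 members were counted, against 4.07% of all probe sets. This count holds for the fit without the replicate number. With that number as a block, the moderated t moved from -1.25 to -3.51 for RT1-Db1 1370383_s_at and from -1.17 to -2.44 for RT1-Da. No probe set was called with the block either. In 0 of the 13 did the diets' ranges separate, which they did in 0.106% of all probe sets. Sizes are given as Hedges' g, the maple syrup mean minus the sugar mix mean in units of the SD between animals. The 95% interval of g, which leaves out the replicate number, included 0 for all 13 (6 animals per diet).

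The estimates lay below 0 for 12 of the 13 probe sets as deposited, with a median g of -0.57, where all probe sets had a median of -0.02 and 51.4% below 0. Many of these probe sets vary together, so this count is not that of 13 independent genes. Under median centring of the arrays the sign turned for RT1-Ba 1392334_at and 1381593_x_at and for both Ciita probe sets, whose ranges are narrower than the gaps between array medians. Under quantile normalization it turned for the same RT1-Ba probe sets, Ciita 1369214_a_at and Cd74, and Ctss took 1 value in all 12 livers. The turned probe sets then had few distinct values over the 12 livers: 5 and 4 for RT1-Ba, 3 for Ciita and 2 for Cd74. The members then numbered 8 lower and 5 higher under median centring and 7 lower and 5 higher under quantile normalization. All probe sets were lower in 5.71% and 57.8% of cases under these scalings, with 2762 of 31042 equal under quantile normalization. The share of lower members thus moved with the scaling.

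Ciita had the largest estimates in SD units. Its diet means differed by -9.4e-06 (1379381_at) and -3.06e-06 (1369214_a_at) in the deposited score, and both signs turned under median centring. 1379381_at of Ciita had a standardised mean of -0.48 ± 0.88 (SD, n = 6) with maple syrup and 0.48 ± 0.94 (SD, n = 6) with sugar mix. Taking every maple syrup animal with every sugar mix animal, maple syrup was higher in 5 of 36 pairs, with g = -0.98 (95% interval -2.08 to 0.17). The exact permutation test over the 924 arrangements of the animals, two-sided, gave p = 0.0952, where the smallest possible is 0.00216. 1369214_a_at of Ciita had g = -0.93 (95% interval -2.03 to 0.21), with maple syrup higher in 8 of 36 pairs and an exact permutation p of 0.108. Each of the 12 animals was left out in turn for each of the 13 member probe sets, and single animals moved these values. Without maple syrup animal 5 the exact permutation p of Ciita 1379381_at was 0.00866, and without sugar mix animal 1 that of Ciita 1369214_a_at was 0.0216. In limma neither was called without these animals.

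Ctss had g = -0.78 (95% interval -1.86 to 0.34), with maple syrup higher in 11 of 36 pairs (exact permutation p = 0.18). RT1-Db1 1370383_s_at had g = -0.65 (95% interval -1.71 to 0.45) and RT1-Da g = -0.60 (95% interval -1.67 to 0.49), each with maple syrup higher in 11 of 36 pairs. Cd74 had g = -0.57 (95% interval -1.63 to 0.52), with maple syrup higher in 13 of 36 pairs (exact permutation p = 0.31). In the deposited score the diet means of Cd74 differed by -0.000455, against an SD between the animals of 0.000725 with sugar mix and 0.000757 with maple syrup. For RT1-Ba, g was -0.31, -0.34, -0.59 and -0.20 for 1370822_at, 1392334_at, 1381593_x_at and 1377334_at. RT1-Bb had g = -0.25 by 1371033_at and 0.04 by 1371065_at, and RT1-Db1 1370382_at had g = -0.04. The exact permutation p of the 13 ran from 0.0952 to 0.926.

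**Figure D5:**
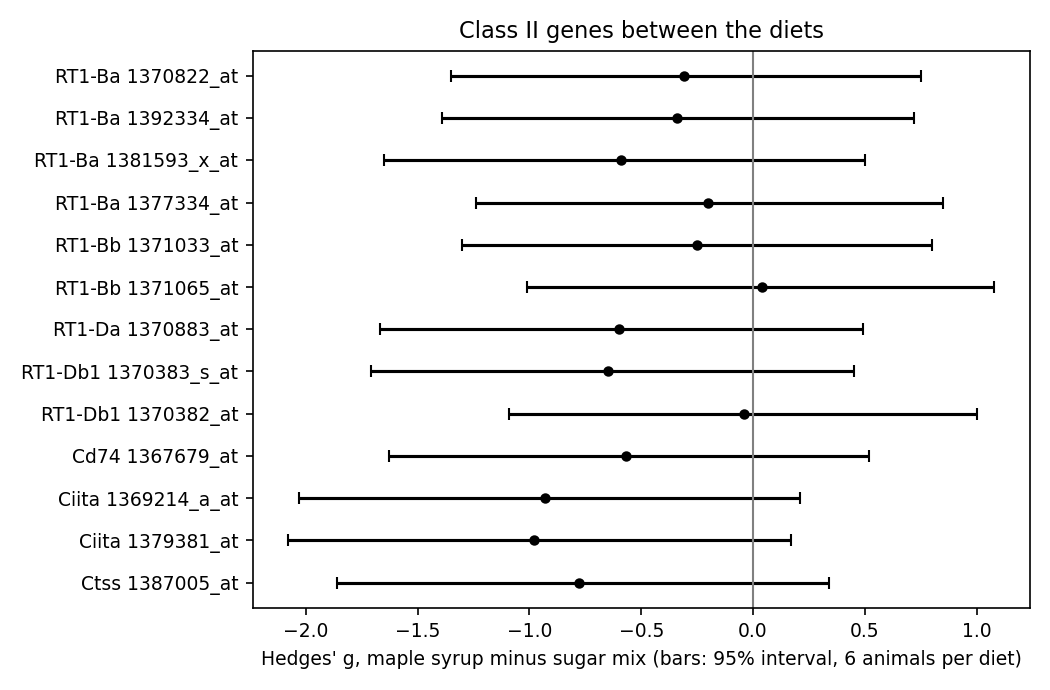
Hedges' g of maple syrup minus sugar mix (x axis, in SD between animals) for the 13 member probe sets, with 95% intervals as bars and 6 animals per diet. Of the estimates 12 lie below 0 and 1 above, between -0.98 and 0.04, and all 13 intervals include 0.

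Neighbouring genes of the pathway did not pass either, with 0 called in each list. In the accessory list 9 of 12 genes were lower and 3 higher with maple syrup, with a median g of -0.28, and RT1-DMa and RT1-DMb had g of -0.68 and -0.18. In the list of X and Y box factors and interferon gamma signalling 9 of 15 were lower, with a median g of -0.27. Rfx5 had g = -0.57 and Irf1 g = -0.34. Of the co-stimulatory genes 4 of 4 were lower, with Cd80 at -0.71, Cd86 at -0.59 and Cd40 at -0.83. In class I presentation 15 of 17 were lower and the median g was -0.51. Dendritic markers were lower in 6 of 9 with a median g of -0.42, Kupffer and macrophage markers in 10 of 15 with -0.25, and B cell markers in 2 of 9 with 0.34. As deposited, 51.4% of all probe sets were lower. These list counts also moved with the scaling. Under median centring, where 5.71% of all probe sets were lower, the lower genes numbered 3 of 12 in the accessory list, 5 of 15 in that of X and Y box factors, 0 of 4 in co-stimulation and 8 of 17 in class I presentation. Dendritic, Kupffer and B cell markers then had 1 of 9, 7 of 15 and 0 of 9 lower. Under quantile normalization, where 57.8% of all probe sets were lower, the counts were 5 of 12, 7 of 15, 3 of 4 and 10 of 17 for the pathway lists and 7 of 9, 9 of 15 and 5 of 9 for the markers. That scaling left 2762 of all 31042 probe sets equal between the diets. In the accessory list 5 genes were lower, 3 higher and 4 equal, and in class I presentation 10, 4 and 3. The X and Y box and Kupffer lists had 1 equal gene each.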

How the data were processed

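Liver RNA (2 ug, as biotinylated cRNA, per the labels' protocols) was measured on 12 Affymetrix arrays, 6 per diet, grouped by the labels, which call each a biological replicate and give no batch. The deposited table holds the authors' processed score of 31099 probe sets, with 0 missing values. Its scale, summarization, normalization and software stand in none of the sources used here, so they are not given. Of 31042 probe sets that are not controls, the platform annotation gave 20826 a single symbol, 436 several and 9780 none. The 57 control probe sets were left out, and no filter or further normalization was applied.

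The fit between diets used limma 3.58.1 under R 4.3.3 (intensity trend, Benjamini-Hochberg adjustment over all probe sets, threshold 0.05), and each member by an exact permutation test in scipy 1.17.1. Correlations with Cd74 used permutation. Effects are Hedges' g with 95% intervals from the noncentral t distribution. The tests were tried on simulated data. Named were all member probe sets, RT1-DMa, RT1-DMb, RT1-DOa, RT1-DOb, Rfx5 and Irf1, the first 3 measured genes of each other list, and the 10 genes most like the members' mean. An item that the rule also names is not reported here. Members and lists were chosen with earlier results of these data known. Replicate numbers are shared by the diets. Over all probe sets, the correlation of same-numbered animals' deviations from the diet means ran from -0.04 to 0.13, so they were not treated as pairs. That check does not cover single members. In RT1-Db1 1370383_s_at same-numbered animals had scores of the same sign at every number, and in RT1-Bb 1371033_at at every number but 4. In Ctss the signs differed at numbers 2, 4 and 6. A replicate block moved t of some members, as given below. Hedges' g, its intervals and the permutation p leave the replicate number out. Alternatives were quantile normalization, median centring, leaving out the lowest 30% of probe sets, array weights, other variance models, the brightest probe set of a gene, a replicate block, each diet centred on its mean, rank correlation and each animal left out. Added after seeing the data were the removal of both animals numbered 1 and 20000000 resamples for RT1-Da.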

Additional observations from a re-analysis of the deposited data

Results flagged for a closer look

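Within a diet, an animal was singled out when its gap to the nearest other animal was a share of the range of the 6 above Dixon's 95% critical value. Of the 26 combinations of a member probe set and a diet, 3 met this, where chance gives about 1 in 20, or 1.3. RT1-Bb 1371065_at gave 2 of them. Sugar mix animal 1 stood at 2.23 in the standardised score, with the nearest sugar mix animal at -0.35, and maple syrup animal 1 at 2.03, with the nearest at -0.27. RT1-Ba 1392334_at gave the other, with sugar mix animal 4 at 1.67 and the nearest at 0.23. This probe set spans 2.88e-05 of the deposited score.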

How the results depend on the processing

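No setting called a probe set between the diets (0 in limma in each, with 314 to 1622 at an unadjusted p under 0.05). The moderated t of members, maple syrup minus sugar mix, turned its sign in 23 recomputed values and did not in 243. The 243 include Ctss under quantile normalization, which took 1 value in all 12 livers and so had no sign. Under quantile normalization it turned for RT1-Ba 1392334_at (0.45) and 1381593_x_at (0.85), Cd74 (1.04) and Ciita 1369214_a_at (1.42), which then took 5, 4, 2 and 3 distinct values. Under median centring the sign turned for RT1-Ba 1392334_at (0.55) and 1381593_x_at (0.37) and Ciita 1369214_a_at (0.58) and 1379381_at (0.37). With 1 animal left out, t ran from -1.24 to 0.07 for RT1-Ba 1377334_at, -1.47 to 0.11 for RT1-Bb 1371033_at, -0.74 to 1.15 for RT1-Bb 1371065_at and -0.46 to 0.72 for RT1-Db1 1370382_at, and r with Cd74 from -0.08 to 0.35 for RT1-Ba 1377334_at. Of the members, 0 to 1 had an exact permutation p under 0.05 with 1 animal left out, Ciita in both cases. Without both animals numbered 1 this count was 1 (Ciita 1369214_a_at, exact permutation p = 0.0397), t of RT1-Db1 1370382_at was 0.07 and r of RT1-Bb 1371065_at 0.02.

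After quantile normalization, which left Cd74 with 2 distinct values, r with Cd74 was -0.52, -0.23 and -0.08 for RT1-Ba 1370822_at, 1392334_at and 1381593_x_at, -0.23 and 0.13 for RT1-Bb 1371033_at and 1371065_at, -0.09 for RT1-Da, -0.47 and -0.69 for RT1-Db1 1370383_s_at and 1370382_at, and -0.39 for Ciita 1379381_at. With RT1-Da alone rerun at 20000000 resamples, 1 probe set, and so 1 member, correlated with Cd74 at an adjusted p of 0.05. With the replicate number as a block, limma called 0 probe sets, with 1359 at an unadjusted p under 0.05 against 1264 without it. The block moved t from -1.25 to -3.51 for RT1-Db1 1370383_s_at, -1.17 to -2.44 for RT1-Da, -0.60 to -1.94 for RT1-Ba 1370822_at and -0.49 to -1.84 for RT1-Bb 1371033_at, each with an adjusted p of 1. The cause of the other changes was not tested.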
